A study of Homo sapiens and Canis lupus familiaris with 27 samples.

Results

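The genes described here are 30 structural genes of the centromere and the kinetochore, chosen by name from the first column of the count tables of the prostate carcinoma cell lines PC-3, LNCaP and CT1258. The tables hold 25300 distinct gene names in all. All 30 members were listed and passed the filter on low counts in PC-3 and LNCaP. In the canine line CT1258, 25 were listed and all 25 passed, while CENPF, CENPT, MIS12, SKA2 and SPAG5 are not among the names of that table and were not analysed there.

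RNA was sequenced from PC-3 and LNCaP cells, which are human, and from CT1258 cells, which are canine. The cells had received the indolylmaleimide PDA-66 at 15 μM for 12 h or 24 h, or the solvent DMSO at 0.15% with a label of 24 h. Every group has 3 samples, except that 2 PC-3 DMSO samples with counts were used, so that 26 samples in 9 groups entered the analysis. Each line is a single established culture model, both PDA-66 groups of a line were compared with the same DMSO samples, and the question was what the compound does to gene expression in each line. As the DMSO samples are labelled 24 h, PDA-66 and the shorter time cannot be told apart in the 12 h comparisons. Between 24 h and 12 h, exposure and time in culture cannot be told apart either. FOLH1, which encodes the prostate-specific membrane antigen, had a mean of 1290 CPM (read counts scaled to a common library size) in LNCaP DMSO samples and 0.0338 CPM in PC-3 DMSO samples, where the mesenchymal marker VIM reached 2117 CPM. In CT1258 DMSO samples FOLH1 was at 3.26 CPM and the epithelial marker EPCAM was listed at 0, while KRT8, KRT18 and CDH1 are not among the names of its table.

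The centromere is marked by nucleosomes that hold CENPA, a histone H3 variant, in place of the usual histone. HJURP is the chaperone that deposits CENPA, and the MIS18 complex, with MIS18A and OIP5 (MIS18B), prepares the site after mitosis. On this chromatin sits the constitutive centromere-associated network (CCAN), which recruits the MIS12 complex and the NDC80 complex, and NDC80 binds microtubules together with the SKA complex. Many of these genes are transcribed late in the cell cycle, in S, G2 and M phase. In bulk RNA, more cells in such a phase and more RNA per cell cannot be told apart.

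The promoters of such genes often carry a cell cycle homology region (CHR), CCAAT boxes or E2F sites, so the letters before the start of 5 members are shown. HJURP, SPC25 and DSN1 were higher at an adjusted p under 0.05 in every comparison with DMSO, CENPA differed between the times in CT1258, and ZWINT changed in opposite directions in 2 lines. Each line gives the 250 bases before the gene's start on the gene's strand, from RefSeq (human build GRCh38.p14), with motif matches in capitals.
HJURP (chr2:233854536-233854785, minus strand): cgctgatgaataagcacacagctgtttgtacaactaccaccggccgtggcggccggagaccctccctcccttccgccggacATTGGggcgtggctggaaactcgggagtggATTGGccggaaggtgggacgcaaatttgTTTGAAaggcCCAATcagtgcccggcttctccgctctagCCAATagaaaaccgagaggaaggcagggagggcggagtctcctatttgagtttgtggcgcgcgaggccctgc
SPC25 (chr2:168890431-168890680, minus strand): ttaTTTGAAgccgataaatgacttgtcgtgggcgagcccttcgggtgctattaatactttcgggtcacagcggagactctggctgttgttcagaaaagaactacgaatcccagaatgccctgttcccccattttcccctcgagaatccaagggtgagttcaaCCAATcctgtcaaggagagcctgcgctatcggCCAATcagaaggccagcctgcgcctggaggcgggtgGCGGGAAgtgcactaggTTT
CENPA (chr2:26785806-26786055, plus strand): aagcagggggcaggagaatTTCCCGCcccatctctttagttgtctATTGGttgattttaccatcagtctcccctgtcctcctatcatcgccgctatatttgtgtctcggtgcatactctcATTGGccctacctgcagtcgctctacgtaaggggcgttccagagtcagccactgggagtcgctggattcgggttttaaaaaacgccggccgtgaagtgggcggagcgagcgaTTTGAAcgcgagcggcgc
ZWINT (chr10:56361260-56361509, minus strand): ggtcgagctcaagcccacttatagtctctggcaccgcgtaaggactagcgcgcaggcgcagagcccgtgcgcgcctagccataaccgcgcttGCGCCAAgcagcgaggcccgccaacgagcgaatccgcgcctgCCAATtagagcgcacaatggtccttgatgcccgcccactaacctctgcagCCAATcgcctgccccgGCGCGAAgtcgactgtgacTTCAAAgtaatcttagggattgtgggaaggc
DSN1 (chr20:36773764-36774013, minus strand): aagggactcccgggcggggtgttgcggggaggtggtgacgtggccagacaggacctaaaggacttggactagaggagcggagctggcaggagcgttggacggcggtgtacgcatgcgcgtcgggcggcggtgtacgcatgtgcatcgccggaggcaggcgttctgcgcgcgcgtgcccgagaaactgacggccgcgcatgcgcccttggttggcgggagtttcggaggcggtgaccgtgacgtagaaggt
The motifs searched were TTTGAA and TTCGAA for the CHR, CCAAT for the CCAAT box and TTCGCGC or TTGGCGC or else TTCCCGC or TTGCCGC as the E2F core, on both strands, in windows of 300 bases that run 50 bases past the start. TTGGCGC read on the other strand is GCGCCAA, which can share letters with a CCAAT, as it does in PMF1. In CENPA the CHR lies at -18 from the start and in ZWINT at -31, and the last 3 letters of the SPC25 sequence open a CHR that crosses the start. DSN1 holds none of these letters in its window. Of the 30 members, 26 were matched to a promoter, and MIS18A, CENPH, CENPL and CENPM were not. A CHR stood in 14 of the 26 windows (53.8%, against 16.6% of 27305 promoters), a CCAAT box in 14 (53.8%, against 35.7%), an E2F core in 11 (42.3%, against 13.1%) and a CHR together with a CCAAT box in 8 (30.8%, against 6.58%). These are counts of letters in human sequence, and they are not sites shown to be bound.

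Most members had more RNA after PDA-66 in all 3 lines, as the map of log2 fold changes shows. A gene was called when its adjusted p was under 0.001 in the edgeR quasi-likelihood F test, with Benjamini-Hochberg adjustment over all genes tested in that line. In PC-3, 12 of 30 members were called higher and 0 lower after 12 h, beside 13.0% and 14.6% of the 13777 genes tested, and 11 higher and 0 lower after 24 h, beside 8.88% and 10.5%. In CT1258, 17 of 25 were called higher and 3 lower after 12 h, beside 22.2% and 22.1% of 9886 genes, and 18 higher and 0 lower after 24 h, beside 16.6% and 17.2%. The median log2 fold change of the members was 0.60 at either time in PC-3, and 1.33 after 12 h and 1.48 after 24 h in CT1258, while medians over all genes tested lay between -0.01 and 0.03 in the 3 lines.

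**Figure D1:**
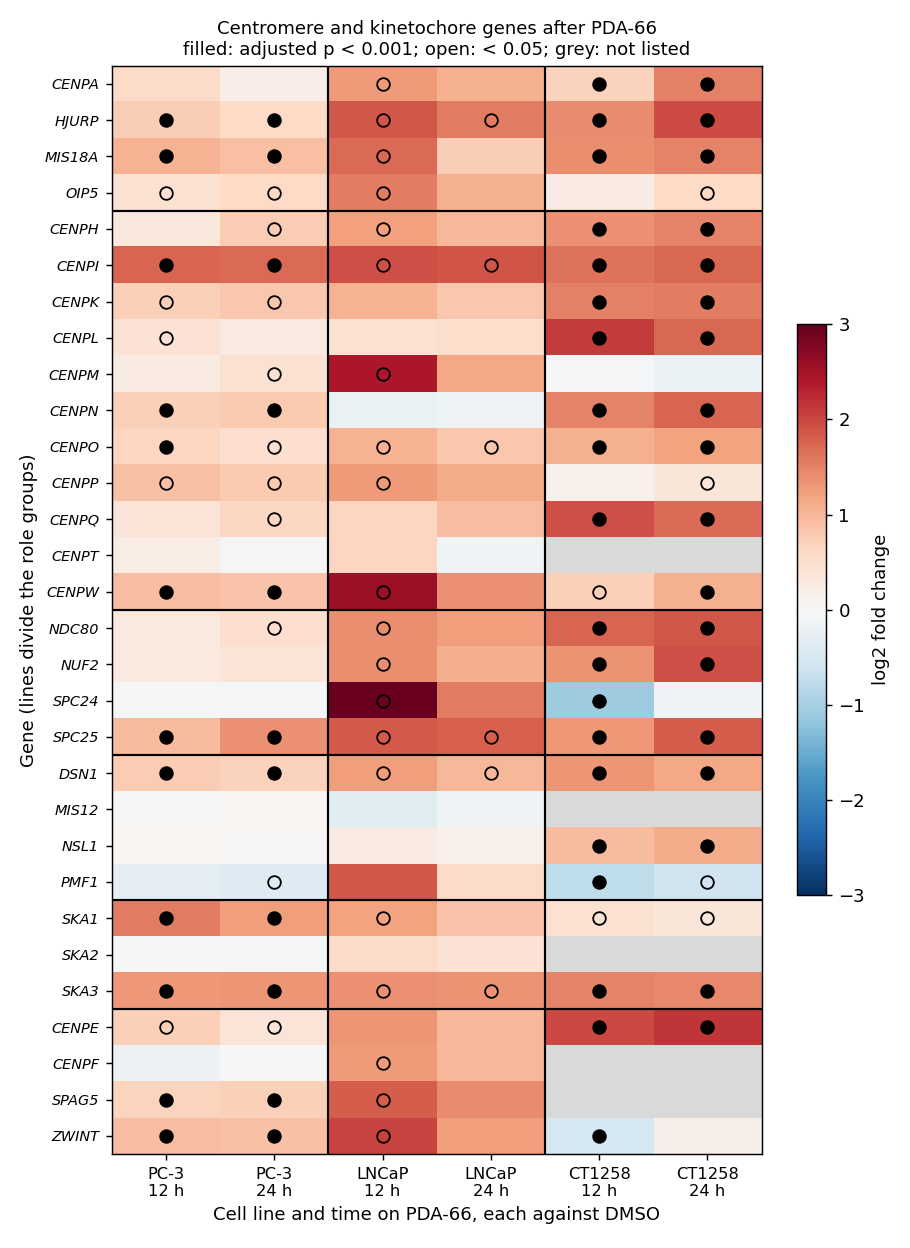
Log2 fold change (colour) of the 30 members (rows, grouped by role) after 12 h and 24 h of PDA-66 against DMSO in each cell line (columns). Filled circles mark an adjusted p under 0.001 and open circles under 0.05 in the edgeR quasi-likelihood test, and grey marks genes not listed in CT1258; the 3 filled circles on blue, all in CT1258 after 12 h, are SPC24, PMF1 and ZWINT.

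In LNCaP, 0 of 30 members were called at an adjusted p under 0.001 at either time by edgeR's quasi-likelihood test, which called 0% of the 13156 genes higher and 0.00760% lower after 12 h, and 0% in either direction after 24 h. At an unadjusted p under 0.05, 24 members passed after 12 h and 22 after 24 h, beside 30% and 19.8% of genes. At an adjusted p under 0.001, the DESeq2 Wald test called 15 and 6 members (beside 4.71% and 2.17% of genes) and limma voom with sample quality weights 23 and 19 (beside 13.9% and 11.2%). With the threshold at 0.05, which was added after the data were seen and is used for LNCaP from here on, edgeR called 20 members higher and 0 lower after 12 h (beside 4.52% and 4.62% of genes) and 6 higher and 0 lower after 24 h (beside 1.35% and 1.57%). The median log2 fold change of the members was 1.30 after 12 h and 1.00 after 24 h.

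The samples of LNCaP differed more among themselves than those of the other lines, with a biological coefficient of variation of 0.240, against 0.0971 for PC-3 and 0.100 for CT1258. LNCaP DMSO replicate 3 held the lowest DMSO level of 26 of the 30 members. Without it, 8 members were called at 0.05 after 12 h and 0 after 24 h (beside 1.85% and 0.135% of genes), and the medians were 1.03 and 0.76. Without LNCaP DMSO replicate 2 the counts were 6 and 0 (beside 2.25% and 0.135%). LNCaP 12 h replicate 2 was the lowest of its group for 17 members and the highest for 13. Without it, 26 and 24 members were called at 0.05 (beside 29.1% and 27.9% of genes).

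Transcript GC content moved with several of these values. In CT1258, Spearman's rho between GC content and log2 fold change was -0.652 over the 25 members and -0.643 over 8620 genes after 12 h, and -0.584 and -0.649 after 24 h, with the GC content taken from the human transcript of the same symbol. In PC-3 it was -0.131 over the members after 12 h. The deviation of LNCaP 12 h replicate 2 from the other samples of its group had a rho of 0.688 with GC content over 30 members and 0.766 over 11700 genes. These points share their libraries, and no test was made on them. When a GC trend was removed from each library before the fit, an alternative added after seeing the data, the members' median in CT1258 was 0.79 after 12 h and 1.06 after 24 h, and 18 of the 20 calls after 12 h and 16 of the 18 after 24 h remained. Of these, 16 were higher at each time, beside 15.4% and 10.9% of genes. In PC-3 the same fit gave medians of 0.62 and 0.58 with 13 and 12 members called higher (beside 16.5% and 11.5% of genes), and in LNCaP 26 and 20 members were higher at 0.05 (beside 14.1% and 7.76%).

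**Figure D2:**
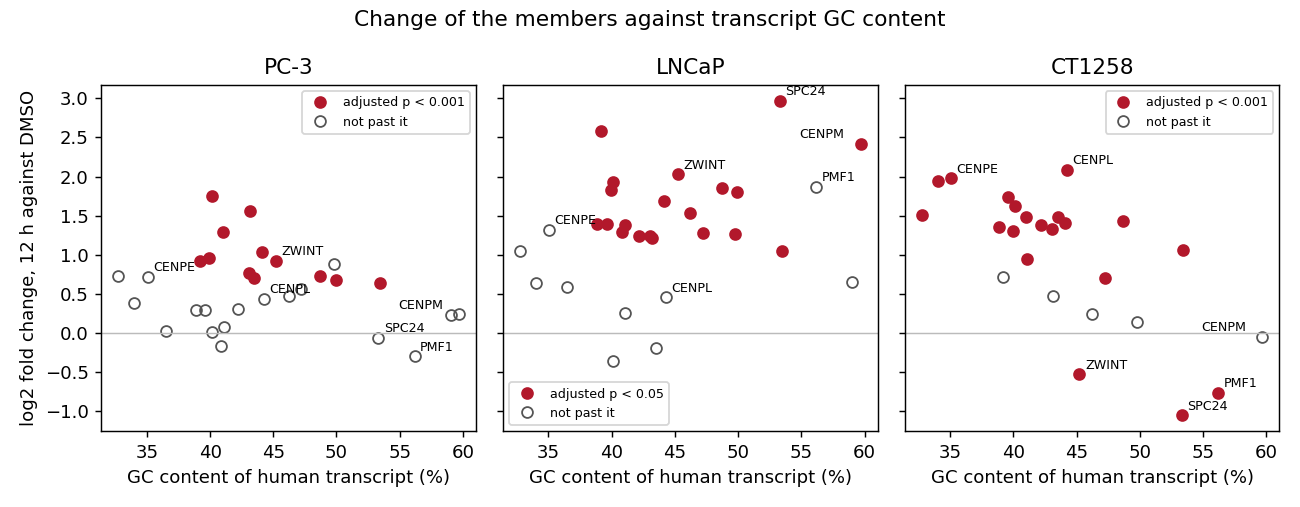
Log2 fold change of each member after 12 h of PDA-66 (vertical) against the GC content of its human canonical transcript in percent (horizontal), in the 3 cell lines. Filled points are past the threshold named in each legend; in CT1258 the points fall from left to right, with rho -0.652 over 25 members.

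The levels below are CPM after TMM normalization, given sample by sample, and differences are log2 fold changes ± SE from the edgeR quasi-likelihood fit with its adjusted p. Positions are those of GRCh37 in GENCODE.

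Of CENPA and its loading factors, 2 of 4 were called higher in PC-3 at each time (beside 13.0% and 8.88% of genes). In CT1258 3 of 4 were called higher at each time (beside 22.2% and 16.6%). In LNCaP, at 0.05, 4 of 4 were higher after 12 h and 1 of 4 after 24 h (beside 4.52% and 1.35%). HJURP (chr2:234742062-234763212) was at 46.4 and 57.5 CPM in the PC-3 DMSO samples, at 82.3 to 90.1 CPM after 12 h and at 73.1 to 81.6 CPM after 24 h. In LNCaP, its DMSO levels of 31.3, 32.2 and 13.8 CPM stood below 104, 76.9 and 99.4 CPM after 12 h and 73.6, 78.8 and 76.3 CPM after 24 h. In CT1258, it went from 61.1, 78.6 and 65.3 CPM to 185, 186 and 180 CPM and then to 263, 254 and 276 CPM. The DMSO and PDA-66 samples of HJURP overlapped in none of the lines. Its log2 fold changes after 12 h were 0.73 ± 0.11 for PC-3 (edgeR adjusted p = 0.000112), 1.86 ± 0.29 for LNCaP (0.00870) and 1.43 ± 0.10 for CT1258 (3.06e-08).

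CENPA (chr2:26987157-27023935) was called between the times in CT1258. It was at 13.5, 16.0 and 14.01 CPM in DMSO, at 23.7, 22.5 and 24.2 CPM after 12 h and at 39.4, 43.8 and 41.2 CPM after 24 h. The 3 groups did not overlap, and the difference between 24 h and 12 h was 0.82 ± 0.11 on the log2 scale (edgeR adjusted p = 0.00022). In PC-3 the DMSO samples were at 9.86 and 20.3 CPM and the PDA-66 samples between 13.99 and 23.9 CPM, so that the groups overlapped, and no call was made (12 h: 0.57 ± 0.24, edgeR adjusted p = 0.0548). In LNCaP the difference after 12 h was 1.28 ± 0.31 (edgeR adjusted p = 0.0338), and without DMSO replicate 3 it was 1.00 and not past 0.05 (0.0977). MIS18A was called higher at both times in PC-3 (1.04 and 0.89) and in CT1258 (1.40 and 1.48). OIP5 was past 0.05 but not past 0.001 in PC-3 (0.47 and 0.61), and 92.5% of its exon bases are shared with other annotated genes, among them OIP5-AS1 on the opposite strand. Whether the counting used the strand is not stated, so its reads cannot be assigned with certainty.

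The CCAN genes hold the kinetochore to CENPA chromatin throughout the cell cycle. Of 11, 4 were called higher in PC-3 after 12 h and 3 after 24 h (beside 13.0% and 8.88% of genes). Of 10 listed in CT1258, 7 and 8 were (beside 22.2% and 16.6%). In LNCaP, 6 and 2 of 11 were higher at 0.05 (beside 4.52% and 1.35%). CENPI (chrX:100353177-100421115) had the largest log2 fold change of all members in PC-3. Its DMSO levels were 15.7 and 13.5 CPM, and its PDA-66 levels were 48.9, 49.0 and 48.7 CPM after 12 h and 51.4, 48.2 and 43.2 CPM after 24 h. In LNCaP it was at 9.59, 9.63 and 3.94 CPM in DMSO, at 39.0, 16.8 and 32.6 CPM after 12 h and at 27.8, 29.1 and 28.3 CPM after 24 h. In CT1258 it was at 7.24 to 7.81 CPM in DMSO and at 20.3 to 26.3 CPM with PDA-66. No PDA-66 sample reached down to the DMSO samples of its line. The log2 fold changes after 12 h, 1.75 ± 0.12, 1.93 ± 0.38 and 1.63 ± 0.12 in PC-3, LNCaP and CT1258, gave no difference past the threshold of the interaction tests (LNCaP minus CT1258: 0.27 ± 0.35). Without LNCaP DMSO replicate 3 the LNCaP difference after 12 h was 1.62 and no longer past 0.05.

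CENPL (chr1:173768688-173794021) and CENPQ (chr6:49431083-49460820), which belong to different subcomplexes of the CCAN, were among the 3 largest called changes in CT1258 after 12 h. CENPL was at 27.9, 32.1 and 34.7 CPM in DMSO, at 146, 133 and 124 CPM after 12 h and at 88.1, 109 and 114 CPM after 24 h, with a log2 fold change of 2.09 ± 0.12 after 12 h (edgeR adjusted p = 6.82e-09). CENPQ went from 16.6 to 19.9 CPM in DMSO to 66.7 to 72.2 CPM after 12 h and 53.4 to 61.0 CPM after 24 h (12 h: 1.94 ± 0.10, edgeR adjusted p = 4.76e-09). In both genes every PDA-66 sample lay above every DMSO sample. In PC-3 the changes after 12 h were smaller, 0.44 ± 0.12 for CENPL (edgeR adjusted p = 0.00742) and 0.39 ± 0.20 for CENPQ (0.111), and in LNCaP neither passed 0.05. With the GC trend removed, both passed it in LNCaP after 12 h (CENPL 0.53, edgeR adjusted p = 0.0153, and CENPQ 0.75, 0.0281), and so did CENPQ in PC-3 (0.33, 0.0490). CENPQ has a GC content of 34.0%. With the GC trend removed, CENPL changed by 1.82 in CT1258 after 12 h, HJURP by 1.43 and CENPQ by 1.14. The difference in response of CENPQ between LNCaP and CT1258 after 12 h was then no longer past 0.05.

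CENPW (chr6:126661261-126670021), the histone-fold partner of CENPT, rose in PC-3 from 9.93 and 13.9 CPM to 21.6, 22.7 and 23.5 CPM after 12 h (0.92 ± 0.15, edgeR adjusted p = 0.000152). In LNCaP its values were 12.1, 5.43 and 3.32 CPM in DMSO and 22.3, 76.1 and 27.0 CPM after 12 h. CENPM, which has a GTPase-like fold, was at 29.3, 15.1 and 16.9 CPM in LNCaP DMSO samples and at 50.8, 217 and 60.1 CPM after 12 h. In both genes LNCaP 12 h replicate 2 was the highest sample, and the groups did not overlap without it either. The fitted differences were 2.58 ± 0.55 for CENPW and 2.42 ± 0.53 for CENPM (edgeR adjusted p = 0.0231 and 0.0241). Without that sample they were 1.82 and 1.44, and without LNCaP DMSO replicate 3 neither was past 0.05. CENPM did not pass 0.05 in CT1258, where its levels of 7.94, 10.9 and 8.54 CPM in DMSO and 9.99, 8.03 and 8.42 CPM after 12 h overlapped. With the GC trend removed it did pass after 12 h, with 0.51 (edgeR adjusted p = 0.00952).

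CENPN, which reads the CENPA nucleosome, was chosen after its values were seen because in LNCaP it was not higher after PDA-66, as most members were. It was at 221, 308 and 399 CPM in the DMSO samples, at 225, 376 and 209 CPM after 12 h and at 280.5, 270 and 291 CPM after 24 h, and the groups overlapped. In PC-3 it rose from 55.4 and 64.9 CPM to 102, 94.5 and 97.2 CPM after 12 h, and in CT1258 from 25.4, 24.97 and 18.5 CPM to 69.4, 65.1 and 57.7 CPM. The interaction called the PC-3 response larger than that of LNCaP after 12 h by 0.94 ± 0.28 (edgeR adjusted p = 0.022). Of its exon bases, 23.1% are shared with other annotated genes. Among the rest of the CCAN, CENPO was past 0.05 in all 6 comparisons with DMSO and CENPT in none of the 4 in which it was measured. Of the exon bases of CENPO, 31.6% are shared with other annotated genes, among them ADCY3 on the opposite strand. With the GC trend removed, CENPT passed 0.05 in PC-3 after 12 h (0.30, edgeR adjusted p = 0.0129).

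In the NDC80 complex, the 4 subunits did not move alike in PC-3 and CT1258. In LNCaP, 4 of 4 were higher at 0.05 after 12 h and 1 of 4 after 24 h (beside 4.52% and 1.35% of genes). The log2 fold changes there were 1.39 to 2.97 and 1.09 to 1.79. NDC80 and NUF2 form the end that binds the microtubule, and SPC24 and SPC25 the end that docks on the inner kinetochore. SPC25 (chr2:169690642-169769881) was higher at 0.05 in all 6 comparisons with DMSO, in PC-3 from 10.3 and 13.2 CPM to 24.3, 21.1 and 22.7 CPM after 12 h and 37.5, 30.5 and 23.3 CPM after 24 h. Its log2 fold changes were 0.95 ± 0.19 and 1.38 ± 0.19 for PC-3 (edgeR adjusted p = 0.000758 and 6.35e-05), 1.83 ± 0.37 and 1.79 ± 0.37 for LNCaP (0.0195 and 0.0403) and 1.30 ± 0.14 and 1.82 ± 0.14 for CT1258 (1.9e-06 and 1.28e-07). NUF2 was called in CT1258, where it went from 18.9, 23.7 and 18.4 CPM to 51.0, 54.1 and 51.3 CPM after 12 h and to 73.0, 78.6 and 82.7 CPM after 24 h. In PC-3 its DMSO levels of 32.95 and 52.8 CPM stood beside 47.3 to 60.1 CPM after 12 h, and the groups overlapped (0.29 ± 0.17, edgeR adjusted p = 0.164). In LNCaP NUF2 was at 18.1 to 41.6 CPM in DMSO and 69.6 to 92.0 CPM after 12 h (1.40, edgeR adjusted p = 0.0167). Without LNCaP DMSO replicate 3 this difference was 1.13 and still past 0.05 (edgeR adjusted p = 0.0406).

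SPC24 (chr19:11242196-11266483) had a different value in each line. In PC-3 it was at 17.1 and 15.4 CPM in DMSO and at 13.96 to 17.1 CPM with PDA-66, and no difference was called (12 h: -0.06 ± 0.13, edgeR adjusted p = 0.700). In CT1258 it was at 51.6, 81.7 and 55.6 CPM in DMSO, at 26.2, 30.7 and 33.7 CPM after 12 h and at 62.8, 54.8 and 58.6 CPM after 24 h. All 12 h samples lay below the DMSO samples and the 24 h samples did not, with -1.06 ± 0.16 after 12 h (edgeR adjusted p = 4.52e-05) and 0.96 ± 0.16 between 24 h and 12 h (0.00155). In LNCaP it was at 13.8, 9.87 and 6.41 CPM in DMSO, at 34.3, 163 and 38.5 CPM after 12 h and at 29.2, 28.2 and 30.7 CPM after 24 h, so that replicate 2 held more than the rest of the 12 h group. The fitted difference after 12 h was 2.97 ± 0.59 (edgeR adjusted p = 0.0175). Without that replicate it was 1.86, and without DMSO replicate 3 it was 2.73 and not past 0.05.

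**Figure D3:**
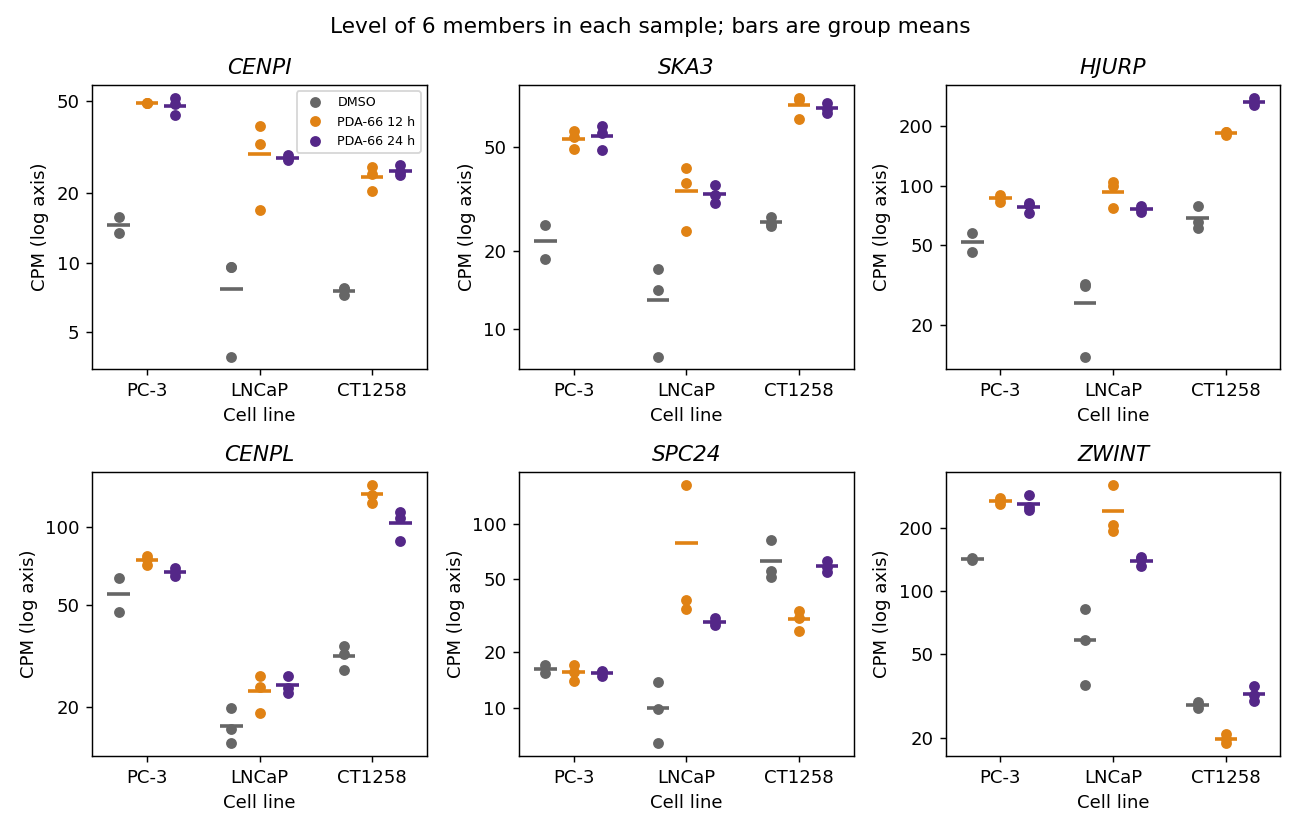
CPM (log axis) of CENPI, SKA3, HJURP, CENPL, SPC24 and ZWINT in each sample (points) of the 3 cell lines, coloured by group, with bars at the group means. CENPI, SKA3 and HJURP lie higher with PDA-66 in every line, while SPC24 and ZWINT lie lower after 12 h in CT1258, where SPC24 fell to 26.2 to 33.7 CPM.

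The MIS12 complex links the inner kinetochore to NDC80. DSN1 was the subunit that rose everywhere, on the log2 scale by 0.77 and 0.69 (PC-3), 1.24 and 1.01 (LNCaP, at 0.05) and 1.33 and 1.15 (CT1258). NSL1 was called in CT1258 (0.95 and 1.10) and did not pass 0.05 in the human lines, and MIS12 itself did not pass it in either human line. PMF1, named here after its values were seen as 1 of the 3 members that fell in CT1258, went from 24.4, 36.5 and 27.8 CPM to 16.7, 17.1 and 18.3 CPM after 12 h. The groups did not overlap (-0.77 ± 0.14, edgeR adjusted p = 0.000255). With the GC trend removed its difference was -0.36 with an adjusted p of 0.0229, so that it was no longer called, while SPC24 and ZWINT still were. PMF1 shares 23.3% of its exon bases with the readthrough gene PMF1-BGLAP. In LNCaP its CPM was 9.03 to 11.9 in DMSO, 17.3 to 82.9 after 12 h, with replicate 2 highest, and 15.1 to 16.7 after 24 h. It did not pass 0.05 there by the edgeR test, but did after 12 h with the GC trend removed (1.55, edgeR adjusted p = 0.0189). LNCaP minus CT1258 after 12 h was 2.56 ± 0.50 (interaction, edgeR adjusted p = 0.000355). In PC-3 PMF1 was at 14.9 and 18.2 CPM in DMSO and 12.1 to 13.3 CPM after 24 h.

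In the SKA complex, SKA1 and SKA3 rose in PC-3, and SKA2 did not pass 0.05 in either human line by the edgeR test. With the GC trend removed it passed in LNCaP after 12 h (0.68, edgeR adjusted p = 0.0120). SKA3 (chr13:21727734-21750691) was at 18.6 and 25.1 CPM in PC-3 DMSO samples and at 57.3, 54.3 and 49.0 CPM after 12 h, in LNCaP at 14.1, 17.0 and 7.87 CPM and at 41.4, 23.8 and 36.3 CPM, and in CT1258 at 24.9, 26.9 and 25.3 CPM and at 76.7, 75.6 and 63.6 CPM. In every line the 12 h samples lay above the DMSO samples, and the log2 fold changes after 12 h were 1.29 ± 0.14, 1.38 ± 0.29 and 1.48 ± 0.10 in the same order (edgeR adjusted p = 7.11e-06, 0.0229 and 2.75e-08). Without LNCaP DMSO replicate 3 the LNCaP difference was 1.12 and not past 0.05 (0.0725). SKA1 (chr18:47901410-47920538) went in PC-3 from 9.79 and 9.92 CPM to 30.7, 27.2 and 29.1 CPM (1.56 ± 0.14, edgeR adjusted p = 1.52e-06). In CT1258 its difference was 0.46 ± 0.12 (0.00384), which was past 0.05 only, and with the GC trend removed it was 0.13 and not past 0.05 (0.363). In LNCaP SKA1 was at 12.2 to 27.0 CPM in DMSO and 32.8 to 46.2 CPM after 12 h (1.21, edgeR adjusted p = 0.0316). Without LNCaP DMSO replicate 3 this difference was 1.00 and not past 0.05 (edgeR adjusted p = 0.122).

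Of the outer kinetochore and corona genes, CENPE (chr4:104026506-104119602), a plus-end directed kinesin that carries chromosomes to the spindle equator, had the largest log2 fold change of the members in CT1258 after 24 h. It went from 46.5, 41.3 and 43.3 CPM to 183, 178 and 157 CPM after 12 h and 179, 193 and 205 CPM after 24 h (1.98 ± 0.09 and 2.14 ± 0.09, edgeR adjusted p = 1.45e-09 and 1.16e-09). With the GC trend removed, HJURP had the largest change after 24 h (1.95), and CENPE changed by 1.23 after 12 h and 1.53 after 24 h. In PC-3 CENPE was at 77.5 and 109 CPM in DMSO and at 168, 146 and 146 CPM after 12 h, without overlap, but at 105 to 136 CPM after 24 h, with overlap. In LNCaP it was at 81.4, 72.7 and 30.3 CPM in DMSO and at 205, 79.2 and 176 CPM after 12 h, and the groups overlapped. SPAG5, the spindle protein astrin, was called in PC-3 at both times (0.67 and 0.71). CENPF was not called in PC-3 (-0.17 and 0.01). In LNCaP its CPM was 93.4 to 202 in DMSO, 293 to 464 after 12 h and 290 to 383 after 24 h. That of SPAG5 was 47.4 to 136, 266 to 354 and 222 to 234. For both genes the PDA-66 samples of LNCaP lay above the DMSO samples. At 0.05, 3 of the 4 outer kinetochore and corona genes were higher in LNCaP after 12 h and 0 after 24 h (beside 4.52% and 1.35% of genes).

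ZWINT (chr10:58116988-58121034), which binds the KNL1 scaffold and is needed for the recruitment of the checkpoint complex RZZ, was called in opposite directions in PC-3 and CT1258. In PC-3 it was at 143 and 140.5 CPM in DMSO and at 270, 279 and 259 CPM after 12 h (0.92 ± 0.10, edgeR adjusted p = 6.8e-06). In CT1258 it was at 27.6, 29.5 and 28.9 CPM in DMSO, at 19.7, 20.9 and 18.8 CPM after 12 h and at 35.3, 30.03 and 31.9 CPM after 24 h. The 3 groups of CT1258 did not overlap, with -0.53 ± 0.10 after 12 h (edgeR adjusted p = 0.000371) and 0.71 ± 0.11 from 12 h to 24 h (0.000659), and after 24 h the difference from DMSO was 0.18 ± 0.10 (0.131). The response of PC-3 exceeded that of CT1258 after 12 h by 1.44 ± 0.29 (interaction, edgeR adjusted p = 0.000637). In LNCaP the CPM of ZWINT was 35.7 to 81.8 in DMSO, 193 to 321 after 12 h and 132 to 145 after 24 h. The difference there after 12 h was 2.03 (edgeR adjusted p = 0.00817). Without LNCaP DMSO replicate 3 it was 1.77 (edgeR adjusted p = 0.0264).

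Across the lines, 6 members (HJURP, CENPI, CENPO, SPC25, DSN1 and SKA3) were higher at an edgeR adjusted p under 0.05 in all 6 comparisons with DMSO, beside 0.762% of the 8265 genes tested in every line. Without LNCaP DMSO replicate 2 or 3 the tally was 0, since 0 members then passed in LNCaP after 24 h. At 0.001, 7 members (HJURP, MIS18A, CENPI, CENPN, SPC25, DSN1 and SKA3) were higher at both times in PC-3 and in CT1258, beside 2.55% of 8703 genes. In the human lines, the only ones where they were measured, CENPT, MIS12 and SKA2 passed 0.05 in no comparison with DMSO by this test, apart from the values given above for CENPT and SKA2 with the GC trend removed. At 0.05, 17 and 20 of 30 were higher in PC-3 after 12 h and 24 h (beside 28.3% and 24.3% of genes) and 0 and 1 lower (beside 28.7% and 25.6%), and in CT1258 19 and 21 of 25 were higher (beside 34.7% and 30.6%) and 3 and 1 lower (beside 35.0% and 31.6%). All PDA-66 samples lay above all DMSO samples for 21 and 20 of 30 members in PC-3 (beside 35.5% and 30.6% of genes), 21 and 25 of 30 in LNCaP (beside 13.5% and 23.1%) and 19 and 20 of 25 in CT1258 (beside 36.1% and 33.1%). They lay below them for 2 and 1 members in PC-3 (beside 35.4% and 31.3%), 0 and 0 in LNCaP (beside 14.6% and 21.6%) and 3 and 1 in CT1258 (beside 36.6% and 33.2%).

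Between 24 h and 12 h, 0 of 30 members were called in PC-3 by the edgeR quasi-likelihood test (0.777% of genes higher, 0.631% lower), with 5 at an unadjusted p under 0.05 (beside 24.5% of genes), 2 by limma voom (16.8%) and 0 by DESeq2 (3.73%). In LNCaP 0 were called as well (0% of genes), with 7 at an unadjusted p under 0.05 (beside 6.36% of genes) and 0 by either other tool. In CT1258, CENPA and ZWINT were called higher after 24 h and 0 members lower (0.850% and 1.28% of genes), and at 0.05 6 members were higher and 1, CENPL, lower (9.08% and 10.2%). At 0.001 neither remained called when any 1 of the 6 PDA-66 samples of CT1258 was left out, and 6 were called without CT1258 DMSO replicate 2. The share of all genes called in those fits was not counted.

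The size of the response differed between lines for 20 of the 25 members shared by all tables, at an adjusted p under 0.05 in at least 1 of 6 edgeR interaction tests, beside 59.5% of the 11736 genes. The exceptions were MIS18A, CENPI, CENPK, SPC25 and SKA3. After 12 h, 2 members responded more in PC-3 than in CT1258 (SKA1 and ZWINT) and 9 less (beside 15.0% and 15.1% of genes), and after 24 h 1 and 10 (beside 10.8% and 10.5%). CENPL, for example, had a response smaller by 1.67 ± 0.22 in PC-3 than in CT1258 after 12 h (edgeR adjusted p = 5.18e-06). Between PC-3 and LNCaP, 1 member responded more and 9 less in PC-3 after 12 h (beside 9.80% and 9.76%) and 1 and 1 after 24 h (beside 5.83% and 3.87%). Between LNCaP and CT1258, 7 responded more and 4 less in LNCaP after 12 h (beside 20.6% and 19.5%) and 2 and 5 after 24 h (beside 9.98% and 11.1%). Without PC-3 DMSO replicate 3, the members called in either direction were 4 after 12 h and 5 after 24 h against CT1258, and 4 and 0 against LNCaP. Without LNCaP DMSO replicate 3 the count between PC-3 and LNCaP after 12 h was 6, and that between LNCaP and CT1258 after 24 h was 12. The share of all genes called was not counted when a sample was left out here. Whether the members or the calls as a whole changed therefore cannot be told from these counts. PC-3 DMSO replicate 2 held the lower value of 27 of the 30 members.

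The same structures hold other genes. Of 25 further kinetochore genes in PC-3, 7 were called higher and 0 lower after 12 h (beside 13.0% and 14.6% of genes). After 24 h 6 were called higher and 0 lower (beside 8.88% and 10.5%). At 0.05 after 12 h, 13 were higher and 2 lower (beside 28.3% and 28.7%). Of 22 tested in CT1258, 15 were called higher and 1 lower after 12 h (beside 22.2% and 22.1%). After 24 h the counts there were 15 and 0 (beside 16.6% and 17.2%). KNL1, the scaffold that holds the checkpoint kinases, rose by 1.64 ± 0.21 in PC-3 and 2.55 ± 0.12 in CT1258 after 12 h (edgeR adjusted p = 2.5e-05 and 1.44e-09), and ERCC6L, a helicase of the centromeric DNA threads, by 1.32 ± 0.10 and 2.25 ± 0.10 (3.81e-07 and 1.32e-09). CENPS was lower in CT1258 (-0.55 ± 0.12, edgeR adjusted p = 0.000798). In LNCaP 6 of 25 were higher at 0.05 after 12 h (beside 4.52% of genes), among them KNL1 (1.54 ± 0.40) and KNTC1 (1.24 ± 0.29).

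Of 9 spindle assembly checkpoint genes, 4 were called higher in PC-3 after 12 h and 3 after 24 h (beside 13.0% and 8.88% of genes). In CT1258, 4 of 7 were called higher at either time (beside 22.2% and 16.6%). At 0.05 in CT1258 after 12 h, 4 were higher and 2 lower (beside 34.7% and 35.0%). BUB1, a checkpoint kinase, rose by 1.04 ± 0.13 in PC-3 and 1.16 ± 0.09 in CT1258 after 12 h, and BUB1B by 0.55 ± 0.10 and 1.45 ± 0.09. TTK, the kinase that starts the checkpoint signal, rose in CT1258 (1.73 ± 0.11). CDC20, the activator that the checkpoint holds back, rose in PC-3 (1.29 ± 0.26) and differed by -0.33 ± 0.11 in CT1258 after 12 h (edgeR adjusted p = 0.0194). In LNCaP 3 of 9 were higher at 0.05 after 12 h and 0 of 9 after 24 h (beside 4.52% and 1.35% of genes). Among those after 12 h were BUB1B (1.51 ± 0.34, edgeR adjusted p = 0.0273) and CDC20 (1.39 ± 0.31, 0.0250).

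Most markers of cell cycle phase were also higher after PDA-66 than in DMSO. In PC-3 after 12 h, 26 of 42 S phase and 13 of 46 G2/M genes of the Seurat lists were called higher (beside 13.0% of genes). In CT1258 the counts were 27 of 38 and 32 of 41 (beside 22.2%). In LNCaP, at 0.05, they were 28 of 42 and 25 of 46 (beside 4.52%). Between 12 h and 24 h in CT1258, 17 S phase genes fell and 1 rose at 0.05 (beside 10.2% and 9.08%). Of the members, 1 fell and 6 rose there. In CT1258 the summed level of the members went from 634 to 778 CPM in DMSO to 1396 to 1515 CPM after 12 h and 1618 to 1737 CPM after 24 h. Over the same groups the G2/M genes summed to 4963 to 5016, 9999 to 10708 and 12743 to 13548 CPM, and the S phase genes to 2684 to 3190, 4663 to 4977 and 3794 to 3841 CPM. In PC-3 the members summed to 1188 and 1439 CPM in DMSO and to 1760 to 1926 CPM with PDA-66, and in LNCaP to 1028 to 1385 CPM and 2005 to 2914 CPM. Whether a shift of the cells between phases has a part in the members' levels was not tested.

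**Figure D4:**
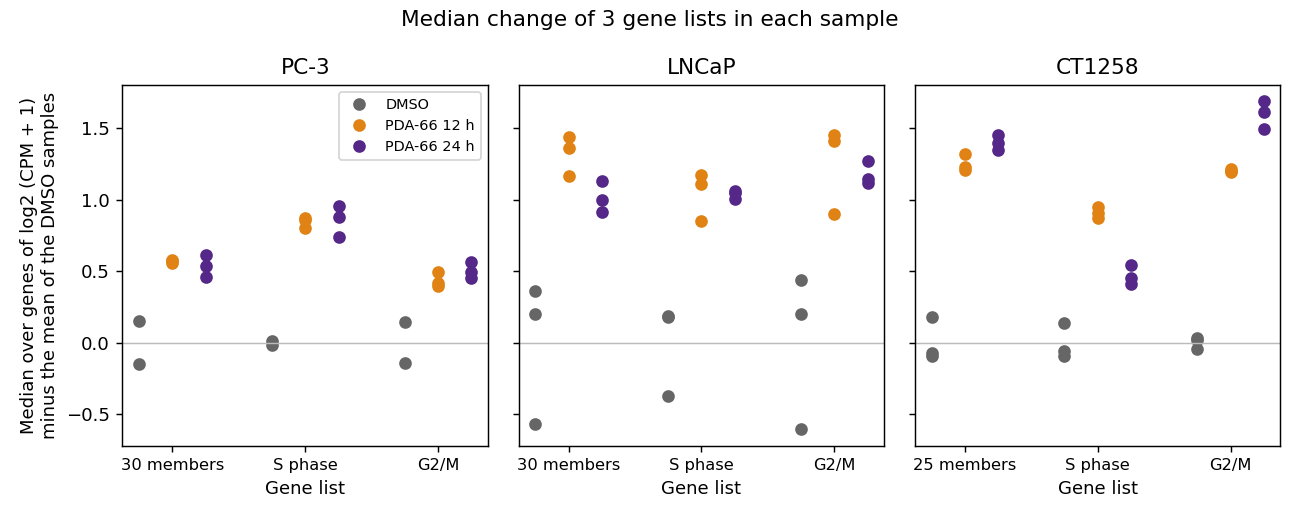
Median over the genes of a list of log2 (CPM + 1), minus the mean of the DMSO samples, for each sample (points) and for the members, the S phase list and the G2/M list. In CT1258 the members and the G2/M list lie higher after 24 h than after 12 h, and the S phase list lies lower, with summed S phase levels of 3794 to 3841 CPM after 24 h.

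Set beside the promoter letters, 9 of the 14 members with a CHR match and 2 of the 12 without were called higher in PC-3 after 12 h (beside 13.0% of genes). Their median log2 fold changes were 0.69 and 0.30. In CT1258 after 12 h the same split of human promoters gave 9 of 12 and 8 of 9 called in either direction (beside 22.2% of genes higher and 22.1% lower). These include the decreases of ZWINT, with a CHR match, and of SPC24 and PMF1, without. The medians were 1.18 and 1.33 in CT1258 and 1.39 and 1.15 in LNCaP. After 24 h, 8 of 14 and 2 of 12 were called higher in PC-3 (medians 0.66 and 0.23, beside 8.88% of genes). In CT1258, 9 of 12 and 6 of 9 were called higher (1.48 and 1.15, beside 16.6%), and the LNCaP medians were 1.17 and 0.86. The groups with and without the letters were not compared by a test.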

How the data were processed

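Polyadenylated RNA was sequenced as single reads, and the authors aligned human reads with STAR 2.3.1s to hg19 and canine reads with BWA to CanFam3.1. The deposited tables hold raw read counts per gene, 1 table per cell line, which the authors tested with edgeR 3.14.0. Stray semicolons after the values of 1 PC-3 column were stripped. Of 27 labelled samples, 26 were analysed. The authors set 1 PC-3 DMSO sample aside as an outlier, and PC-3 DMSO replicate 1 was not analysed here. The replicates are described as independent. Totals per sample were 14650839 to 18091755 in PC-3, 11923105 to 14741883 in LNCaP and 7203534 to 20976950 in CT1258, where the DMSO samples were 2.64 times as deep as the PDA-66 samples.

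Counts were tested here per line over all 3 groups with the edgeR 4.0.16 quasi-likelihood F test (R 4.3.3, filterByExpr, TMM, Benjamini-Hochberg over all genes tested). The threshold was the study's 0.001, with 0.05 as a second one. Responses were compared between lines in 1 fit over shared gene names (interaction, adjusted p under 0.05). The fits were tested on simulated counts, in which the test recovered 147 of 200 genes changed by 1 on the log2 scale after 12 h in PC-3 at 0.001, and 0 of 200 in LNCaP at 0.001 and 32 at 0.05. limma 3.58.1, DESeq2 1.42.0 and the lists of Seurat 5.3.0 were used as alternatives and markers, and figures were drawn with matplotlib 3.10.9. Human and canine genes were joined by symbol, and 798 canine names are protein entries.

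The members and lists were chosen with earlier results of these data known. Sample values are given for the 3 largest called changes of each comparison with DMSO, for members called in opposite directions in 2 lines or between 24 h and 12 h, and for those whose responses in PC-3 and CT1258 differed at both times with opposite signs. Of the other lists, the 2 largest called increases and decreases per line after 12 h are named. CENPN, PMF1 and the others named beside them were added after their values were seen.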

Additional observations from a re-analysis of the deposited data

Results flagged for a closer look

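The responses of 14 named members to PDA-66 were compared between the cell lines, and those below differed at an adjusted p under 0.05 in the edgeR interaction test. Each value is the log2 fold change against DMSO in the first line minus that in the second. PC-3 minus LNCaP after 12 h was -1.10 for HJURP, -2.13 for CENPM, -1.61 for CENPW, -1.08 for NUF2, -2.97 for SPC24 and -1.07 for ZWINT. PC-3 minus CT1258 after 12 h was -1.67 for CENPL, -1.57 for CENPQ, -1.09 for NUF2, 1.08 for SKA1, -1.29 for CENPE and 1.44 for ZWINT. LNCaP minus CT1258 after 12 h was -1.68 for CENPL, 2.40 for CENPM, -1.34 for CENPQ, 1.80 for CENPW, 3.96 for SPC24 and 2.51 for ZWINT. SPC24, CENPM and CENPW in LNCaP hold the 12 h sample of replicate 2, which was the highest of its group for all of them. After 24 h, PC-3 minus LNCaP was -0.96 for HJURP. After 24 h, PC-3 minus CT1258 was -1.32 for CENPA, -1.37 for HJURP, -1.45 for CENPL, -1.09 for CENPQ, -1.58 for NUF2, 0.88 for SKA1 and -1.75 for CENPE. After 24 h, LNCaP minus CT1258 was -1.22 for CENPL, -0.88 for NUF2, 1.62 for SPC24, -1.17 for CENPE and 1.04 for ZWINT. The DMSO samples are shared by both times of a line, so the values of 12 h and 24 h are not independent.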

How the results depend on the processing

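Counts of members called depended most on the test in LNCaP. There, limma voom called 23 members after 12 h and 19 after 24 h at 0.001 (beside 13.9% and 11.2% of genes). DESeq2 called 15 and 6 (beside 4.71% and 2.17%), where the quasi-likelihood test of edgeR called 0. The paper's own edgeR analysis reports genes past 0.001 in LNCaP at both times, and it does not name its test within edgeR. At 0.05 edgeR called 20 and 6, all higher (beside 4.52% and 1.35% of genes higher). At 0.05 after 24 h, voom called 26, DESeq2 17 and the fit with the GC trend removed 20 (for the last, beside 7.76% of genes higher). In PC-3, 21 members passed 0.05 after 24 h (beside 24.3% of genes higher and 25.6% lower). Between 24 h and 12 h voom called 2 there (beside 16.8% of genes). Between 24 h and 12 h in CT1258, edgeR called 2 (beside 0.850% of genes higher and 1.28% lower) and 7 at 0.05 (beside 9.08% and 10.2%). The counts were 4 with no filter, 8 with voom, 5 with DESeq2 and 4 with thinned DMSO counts. Of the differences in response between lines, those of LNCaP and CT1258 numbered 17 with voom and 6 at 0.001 after 12 h, and 13 and 2 after 24 h. At 0.001, PC-3 and CT1258 differed in 3 and 2 members, and PC-3 and LNCaP in 1 and 0. PC-3 and LNCaP after 24 h differed in 9 with voom and 1 with library size only. NUF2 had no difference between LNCaP and CT1258 after 12 h and 0.68 with the GC trend removed, where CENPE and NUF2 (PC-3 and CT1258 after 12 h, LNCaP and CT1258 after 24 h) and CENPQ (LNCaP and CT1258 after 12 h) no longer passed 0.05.

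With 1 sample left out at a time, members called ranged from 8 to 16 and 7 to 13 in PC-3 (12 h and 24 h). The ranges were 18 to 23 and 18 to 20 in CT1258 and 0 to 4 and 0 to 0 in LNCaP. At 0.05 in LNCaP after 12 h, they ranged from 6 without DMSO replicate 2 (beside 2.25% of genes) to 26 without 12 h replicate 2 (beside 29.1%). After 24 h the same fits gave 0 (beside 0.135%) and 24 members called (beside 27.9%). Between 24 h and 12 h the members called ranged from 0 to 6 in CT1258. Differences in response ranged from 4 to 13 and 0 to 5 for PC-3 and LNCaP, 4 to 15 and 5 to 14 for PC-3 and CT1258, and 10 to 13 and 4 to 12 for LNCaP and CT1258. For counts in this section with no share of all genes beside them, that share was not counted. The causes were not tested.

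Replicate numbers did not pair the samples (median correlation of same-numbered samples -0.066 in CT1258, -0.19 in LNCaP and -0.085 in PC-3). With a replicate block, 7 members were called in PC-3 after 24 h, 20 and 18 in CT1258 after 12 h and 24 h and 1 between them, 0 in LNCaP, and at 0.05 11 and 0 in LNCaP.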
